A study of Mus musculus with 8 samples.

Results

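Antisense RNAs are long non-coding transcripts made from the strand opposite a gene. In the annotation used by the submitters' normalized table they form a class of their own, antisense_RNA. The transcripts described here were all rows of that class with a mean normalized value of at least 20 over the 8 libraries, without the 2 genes Flicr and Gm11695, which the selection rule leaves out. This gave 167 antisense RNAs among 736 rows of the class and 16418 rows of the table, and 567 rows of the class stayed under the threshold. The lowest values inside were Gm4876 at 20.2, Gm27209 at 20.5, Gm13563 at 20.6, Gm26642 at 20.9 and Gm26771 at 21.2, and the nearest outside were Gm45767 at 19.8, Gm15879 at 19.5, Bach2os at 19.1, Gm16083 at 19.0 and Gm20275 at 18.9.

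The cells were naive CD4 T cells (CD3+CD4+CD25-CD44low/-CD62L+) of spleen and lymph node. All mice had the genotype Satb1fl/fl x CD4-CreERT2wt/+, so both groups carry floxed alleles of Satb1, which encodes a chromatin-organising protein of the T cell lineage, and a Cre recombinase that acts when tamoxifen is given. The 4 KO samples received tamoxifen and the 4 WT samples were untreated, so the drug and the intended deletion cannot be told apart. Ages, and whether each sample was 1 animal, are not given in the labels. Poly(A) RNA was sequenced as single reads of 75 bp with an unstranded kit. Libraries held 5227758 (Sample_2911_WT) to 21998174 (Sample_2914_WT) counted reads, of which 8815 to 38269 per library fell on the 167 antisense RNAs. No antisense RNA of the set was at 0 reads in any library. Satb1 itself stood at 909.9 ± 87.2 CPM (read counts scaled to library size by TMM) in KO against 1033 ± 41.4 CPM in WT (SD, 4 libraries each), a log2 fold change of -0.18 that did not pass the threshold (edgeR adjusted p = 0.0582).

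An antisense RNA can share bases with the exons of its partner, run through the partner's introns, or start head to head from the same promoter region. Some act in cis on the neighbouring gene, as imprinted transcripts such as Kcnq1ot1 and Airn are known to do, and most have no known function. In naive T cells, which are small and quiescent, such transcripts lie opposite genes of receptor signalling, lineage identity and housekeeping alike. The kit does not record the strand of a read. Reads from exons shared by an antisense RNA and its partner, and intronic reads of unspliced partner RNA, therefore cannot be told apart from antisense reads, and whether the counting handled such reads by strand is not given in the sources used here.

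Each antisense RNA was paired with the protein-coding gene on the opposite strand that shares the most bases with it. A total of 158 overlapped such a gene, 4 (2810001G20Rik, BC051226, Gm10863 and Gm11423) had none but started within 5 kb of one head to head, and 5 had neither. Exon lay on exon in 115, where the median was 15.9% of the antisense exon bases and the highest was 82.9% (AC121801.1, opposite Fam149b). In 8 of them at least 50% of exon bases were shared, and in 43 no exon base was. Of 72 that lay wholly within the body of the partner, 30 shared no exon base with it. Pi4kb and Gramd1a each served as partner of 2 antisense RNAs, so that 162 pairs held 160 distinct partners. The class was spread over the genome, with the most on chromosome 7 (22) and chromosome 11 (20).

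Antisense RNAs were expressed at lower levels per length than coding genes. The median level was 3.70 TMM-scaled CPM per kilobase of exon, against 8.93 for the protein-coding genes tested, and 25 of the 167 lay above that coding median. Since a minimum level chose the members, these levels are a description. Gm45552 had the highest level per length of the set at 109.2. It was followed by Gm26740 at 34.2, in the locus of Raet1e, a gene for a ligand of an activating NK cell receptor, and by AC122305.3 at 32.4, inside Cd3e, the gene of a chain of the T cell receptor complex. Gm28913, opposite the innate signalling kinase gene Ikbke, had 29.4, Tug1 25.8 and 2810001G20Rik 25.6. Their SD over the 8 libraries was 4.18 for Gm26740, 3.30 for AC122305.3, 3.83 for Gm28913 and 1.14 for Tug1, so no adjacent pair in the order below Gm45552 is separated beyond its spread, whereas Gm45552 stands apart in all 8 libraries. AC122305.3 shares 37.4% of its 361 exon bases with exons of Cd3e, and had reads amounting to 3.05% of the Cd3e level in CPM. Kcnq1ot1, whose exon sequence covers 93092 bases, had the lowest level per length, 0.19.

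Of the 167 antisense RNAs, all tested, 7 changed between the groups (4.19%), 1 higher and 6 lower in KO. Changed, or called, means a Benjamini-Hochberg adjusted p under 0.05 over all genes tested, by the quasi-likelihood test of edgeR. Among all 11772 genes tested 6.39% were called (3.98% higher and 2.41% lower), and among the 10330 protein-coding genes 6.69%, so the share of antisense RNAs called was no higher than the background. The 6 lower were Gm13546, Gm45552, 2810001G20Rik, Gm26771, Gm11998 and Gm20324, and the 1 higher was 5830468F06Rik. Among the 6 lower, Gm26771 and Gm11998 passed the minimum level of the set only through the WT libraries. Of all 276 tested rows of the class, including those under the threshold and the excluded pair, 9 were called (3.26%), 1 higher and 8 lower. With limma-trend on the deposited normalized values, which took in all 736 rows, 15 were called, where 4.65% of all genes were called. Without Sample_2909_KO, and also without Sample_2913_WT, 4 of the 167 were called, all lower. The share of all genes called was then 5.85% and 4.78%. An unadjusted p under 0.05 was reached by 32 of the 167, of which 27 had a lower level in KO. The share of all tested genes that reached it was not counted. This number, and those given below for smaller groups, therefore cannot be read as an excess. Fewer cells of a type and less RNA per cell cannot be told apart in such bulk samples.

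**Figure D1:**
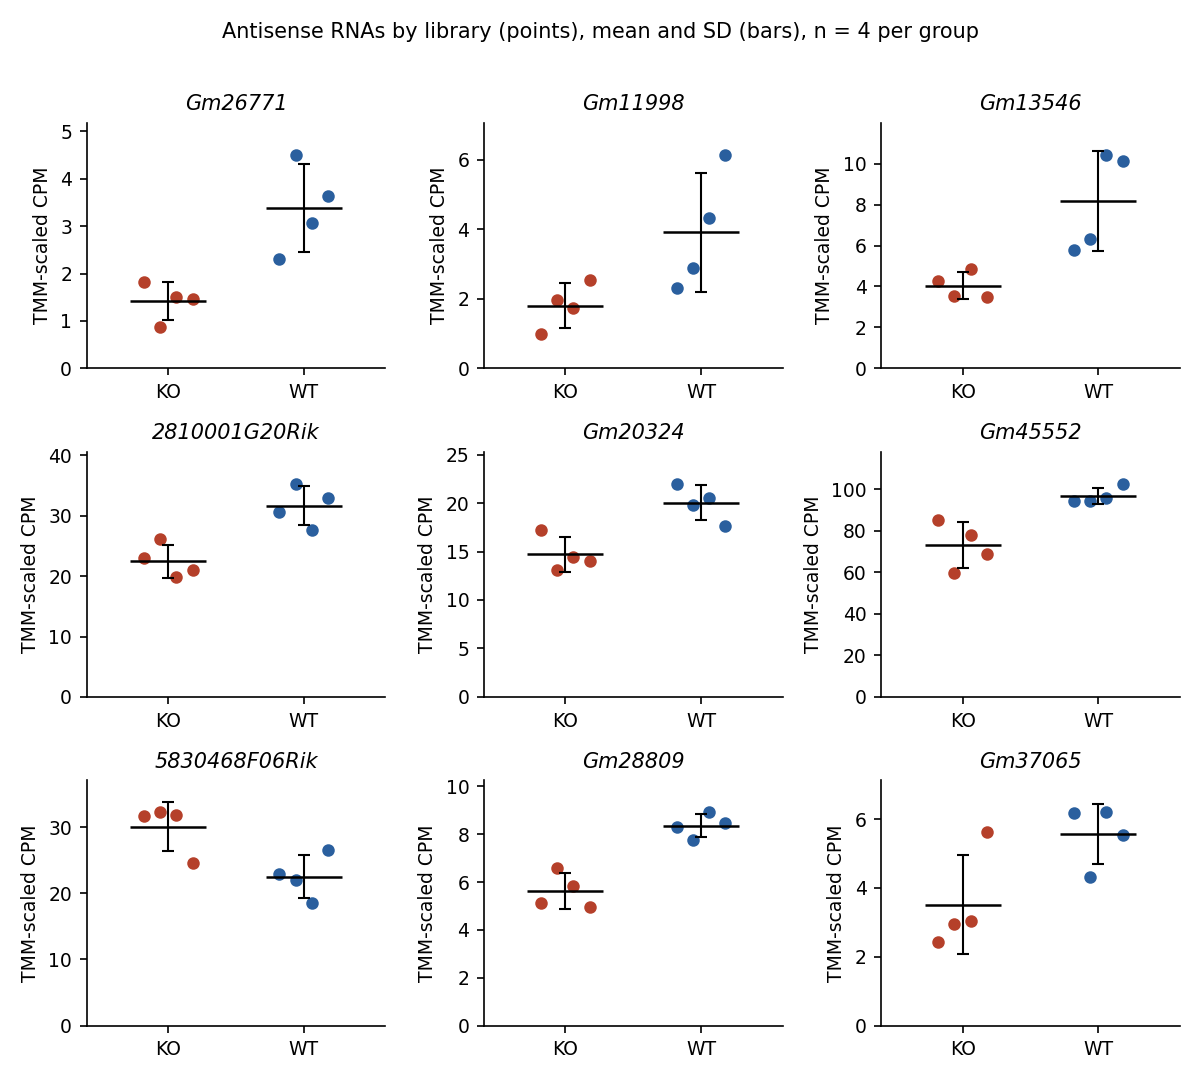
TMM-scaled CPM of 9 antisense RNAs in each library (points; KO red, WT blue), with the mean and SD of 4 libraries per group; each panel has its own vertical axis from 0. The 7 antisense RNAs called by edgeR are followed by Gm28809 and Gm37065, which were called only relative to their partner; the KO mean lies below the WT mean in every panel except that of 5830468F06Rik, and the points of the groups overlap in 5830468F06Rik, Gm11998 and Gm37065.

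Gm13546 (chromosome 2, 58164001 to 58177063, plus strand, mm10) has 5 exons that all lie in introns of Cytip, a gene for a leukocyte protein that binds cytohesins and regulates adhesion. The KO libraries had 4.27, 3.51, 4.86 and 3.48 CPM, against 5.79, 6.31, 10.4 and 10.1 CPM in the WT libraries. Every KO library lay below every WT library, and the WT libraries themselves fell into a lower and a higher pair. The log2 fold change was -1.07 (SE 0.22, edgeR adjusted p = 0.00177; 4.03 ± 0.66 against 8.16 ± 2.45 CPM, SD, n = 4 each). Cytip stood at 869.3 CPM in KO against 854.2 CPM in WT, with a log2 fold change of 0.02 (adjusted p = 0.864).

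Gm45552, a transcript of 778 exon bases, shares part of them with exons of a coding gene on the other strand. It had 85.2, 59.8, 78.1 and 68.8 CPM in the KO libraries and 94.6, 94.4, 95.7 and 102.7 CPM in the WT libraries. No KO library reached the lowest WT library. Gm45552 fell by 0.41 on the log2 scale (SE 0.083, edgeR adjusted p = 0.00184; 73.0 ± 11.1 against 96.9 ± 3.96 CPM).

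2810001G20Rik (chromosome 11, 64079484 to 64083259, plus strand) starts 16 bases from Cox10, a gene needed to make the heme group of cytochrome c oxidase, and the pair point away from each other. Its KO libraries had 23.0, 26.1, 19.9 and 21.03 CPM, against 30.7, 35.3, 27.7 and 32.9 CPM in the WT libraries. The groups did not overlap, and the log2 fold change was -0.48 (SE 0.11, edgeR adjusted p = 0.00542; 22.5 ± 2.72 against 31.6 ± 3.25 CPM). The value of Cox10 was -0.03 (adjusted p = 0.907).

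Gm13546, Gm45552 and 2810001G20Rik kept their calls in all 17 alternative analyses, with adjusted p of at most 0.0282, 0.0198 and 0.0274. The other 4 did not.

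Gm26771 (chromosome 3, 83773853 to 83789956, minus strand) lies opposite Sfrp2, a gene for a secreted modulator of Wnt signalling, with 32.1% of its exon bases on Sfrp2 exons. Its KO libraries had 1.83, 0.88, 1.51 and 1.47 CPM, all below the 2.32, 4.51, 3.08 and 3.64 CPM of the WT libraries. Gm26771, with a mean normalized value of 21.2, passed the minimum level of the set only through the WT libraries. The log2 fold change of -1.24 (SE 0.34, edgeR adjusted p = 0.0198) was the lowest of the set. Sfrp2 was itself at 1.4 CPM in KO against 2.6 CPM in WT (log2 fold change -0.86, adjusted p = 0.202). The call of Gm26771 was lost without Sample_2908_KO (adjusted p = 0.0734), Sample_2913_WT (0.0792) or Sample_2915_WT (0.0676).

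Gm20324 (chromosome 15, 82899080 to 82905818, plus strand) lies within Tcf20, a gene for a transcriptional coregulator, and shares no exon base with it. The KO libraries had 17.2, 13.1, 14.5 and 14.1 CPM, against 22.0, 19.8, 20.5 and 17.7 CPM in the WT libraries, without overlap. Gm20324 fell (log2 fold change -0.44, SE 0.13, edgeR adjusted p = 0.0335) and so did Tcf20 (-0.28, adjusted p = 0.00165). The call of Gm20324 was kept without Sample_2907_KO or Sample_2915_WT but lost without any 1 of the other 6 libraries (adjusted p from 0.0631 to 0.104), and was at 0.320 without Sample_2911_WT and Sample_2914_WT together.

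Gm11998 (chromosome 11, 11557421 to 11579460, plus strand) had no partner by the rule used. Its KO libraries had 0.98, 1.97, 1.73 and 2.54 CPM, against 2.32, 2.88, 4.32 and 6.15 CPM in the WT libraries, so that 1 KO library lay above 1 WT library. Gm11998 also passed the minimum level of the set through the WT libraries, as its KO mean alone lay below that level. The log2 fold change was -1.19 (SE 0.33, edgeR adjusted p = 0.0243). It missed the threshold with DESeq2 (adjusted p = 0.0527), with limma-trend (0.0587), and without Sample_2907_KO (0.107), Sample_2909_KO (0.0595), Sample_2914_WT (0.0849) or Sample_2915_WT (0.184).

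5830468F06Rik (chromosome 8, 15015092 to 15018907, minus strand), the antisense RNA that rose, lies within Kbtbd11, a gene for a Kelch and BTB domain protein, without shared exon bases. The KO libraries had 31.6, 32.2, 31.9 and 24.5 CPM, against 23.0, 22.0, 18.6 and 26.6 CPM in the WT libraries. Sample_2910_KO lay below Sample_2915_WT and apart from the other KO libraries. The log2 fold change was 0.43 (SE 0.12, edgeR adjusted p = 0.0218), and Kbtbd11 rose too (0.25, adjusted p = 0.00253; 1109 against 934.0 CPM). The call of 5830468F06Rik was lost without Sample_2907_KO (adjusted p = 0.0769), Sample_2908_KO (0.0529), Sample_2909_KO (0.0685), Sample_2913_WT (0.0555) or Sample_2914_WT (0.159), and without Sample_2911_WT and Sample_2914_WT together (0.314).

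The region around the start of 4 antisense RNAs is shown because these are lower in KO, alone or relative to the partner, and their windows hold no coding exon. The windows, 250 bases before to 50 bases after the start, come from RefSeq on GRCm38.p6, the assembly behind mm10. All lie on the plus strand, and capitals mark the 50 bases after the start. They are chr2:58163724-58164023 for Gm13546, chr15:82898830-82899129 for Gm20324, chr11:11557160-11557459 for Gm11998 and chr6:125480958-125481257 for Gm28809, whose values follow with the ratios.
Gm13546: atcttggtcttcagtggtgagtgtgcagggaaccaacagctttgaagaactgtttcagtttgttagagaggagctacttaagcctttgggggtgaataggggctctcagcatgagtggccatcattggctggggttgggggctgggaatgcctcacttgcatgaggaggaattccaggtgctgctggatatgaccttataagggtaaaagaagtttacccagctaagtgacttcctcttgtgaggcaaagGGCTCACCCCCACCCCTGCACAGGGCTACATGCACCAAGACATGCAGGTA
Gm20324: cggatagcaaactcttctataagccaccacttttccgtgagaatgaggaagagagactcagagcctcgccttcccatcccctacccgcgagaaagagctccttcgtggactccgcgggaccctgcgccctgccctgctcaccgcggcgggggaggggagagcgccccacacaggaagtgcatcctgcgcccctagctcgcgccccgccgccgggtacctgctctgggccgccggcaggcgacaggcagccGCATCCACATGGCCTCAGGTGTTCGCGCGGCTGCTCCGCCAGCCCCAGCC
Gm11998: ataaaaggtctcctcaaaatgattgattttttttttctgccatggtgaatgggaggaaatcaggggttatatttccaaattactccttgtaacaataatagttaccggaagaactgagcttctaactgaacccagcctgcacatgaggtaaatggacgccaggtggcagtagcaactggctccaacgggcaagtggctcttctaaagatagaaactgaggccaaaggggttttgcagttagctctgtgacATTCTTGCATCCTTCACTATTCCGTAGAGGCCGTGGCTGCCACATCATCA
Gm28809: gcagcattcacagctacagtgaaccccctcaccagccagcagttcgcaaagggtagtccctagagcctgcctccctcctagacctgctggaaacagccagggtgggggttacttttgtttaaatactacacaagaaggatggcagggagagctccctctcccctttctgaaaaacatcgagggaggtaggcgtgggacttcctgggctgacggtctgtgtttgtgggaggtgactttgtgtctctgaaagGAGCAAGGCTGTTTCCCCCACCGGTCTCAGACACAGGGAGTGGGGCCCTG
They differ in base composition. The window of Gm20324 is 68.0% GC with 27 CpG dinucleotides, that of Gm28809 56.3% GC with 5, that of Gm11998 44.7% with 5, and that of Gm13546 51.3% with 0. The RefSeq start lies 27 bases upstream of the GENCODE start for Gm13546, 11 for Gm11998, 155 for Gm28809, and at the same base for Gm20324. RefSeq also gives other starts for Gm28809, up to 2314 bases away, with windows of 48.0 to 53.0% GC. The window shown is the nearest to the GENCODE start.

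Of the 167 antisense RNAs 68 matched the RefSeq table, with 85 windows. Their median GC content was 55.0%, against 52.7% over all 32851 windows of the table. No limit was set on the distance to the GENCODE start. Some of the 85 windows lie far from it, such as 55620 bases for Gm16364 and 40223 for E230032D23Rik. The interferon-stimulated response element core (GAAA, any 2 bases, GAAA), searched on both strands, was in 1.18% of the windows (only in Rab10os) and in 3.44% of all windows. The STAT site core TTCNNNGAA was in 3.53% (2310043M15Rik, Gm11725 and Rab10os) against 8.3% of all. None of the 4 windows shown holds either core. The cores can overlap each other, and a match or its absence describes these letters only.

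The direction of the values was counted over the whole set, called or not. Among the 167, 111 (66.5%) had a negative log2 fold change, against 50.1% of all genes tested. The median was -0.15 (quartiles -0.35 and 0.06), where that of all genes was -0.0005 (quartiles -0.11 and 0.12). Under the alternative analyses the median of the antisense RNAs ranged from -0.19 to -0.11, and that of all genes from -0.02 to 0.00. The range over the set ran from -1.24 to 1.30, and the median SE was 0.24.

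**Figure D2:**
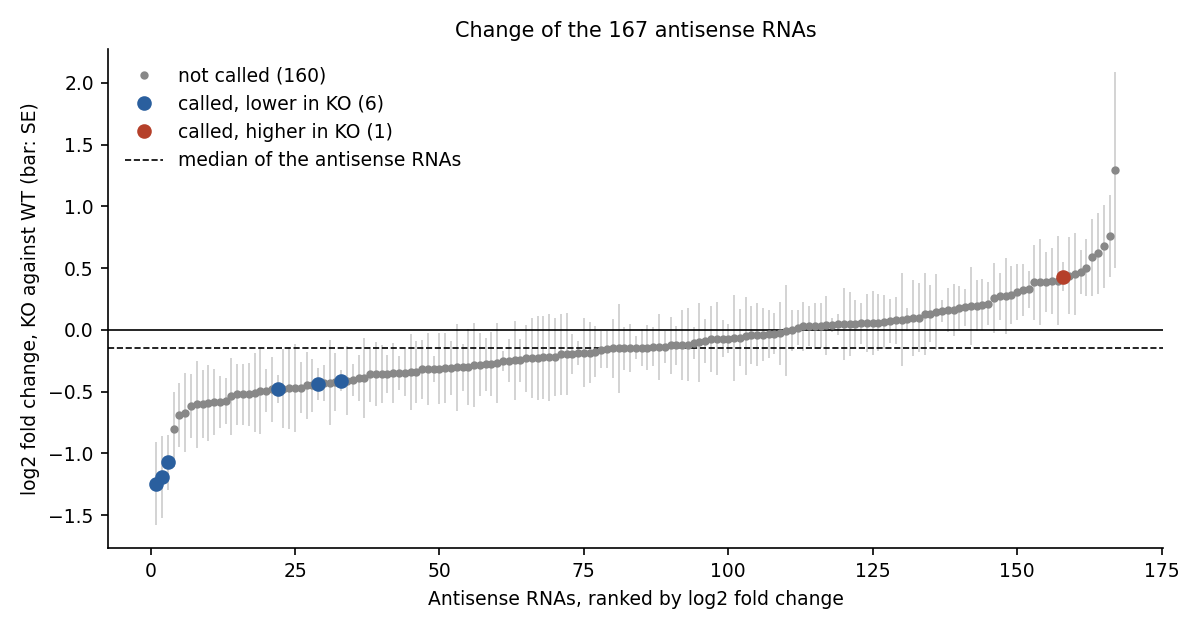
The log2 fold changes of the 167 antisense RNAs, KO against WT, ranked (points; bars are the SE of each estimate); coloured points were called by edgeR. The dashed line is their median, -0.15; 111 points lie below 0, 6 of them called, and 56 above, 1 of them called.

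In 12 antisense RNAs (7.19%) every KO library lay below every WT library, and in 0 was every KO library above. Over all genes tested 11.1% had no overlap, 6.23% with KO higher and 4.86% with KO lower. Beside 5 of the called ones (Gm13546, Gm45552, 2810001G20Rik, Gm26771 and Gm20324) these were 1700052K11Rik, 9130221H12Rik, A730011C13Rik, Airn, Gm28809, Gm34006 and Kcnq1ot1. Gm34006 lies opposite Scml4, a Polycomb-related gene. It had 7.06 ± 1.11 CPM in KO against 10.1 ± 0.94 CPM in WT (log2 fold change -0.49, adjusted p = 0.102). A730011C13Rik, opposite the lipid kinase gene Pi4kb, had 10.9 ± 1.65 against 14.7 ± 1.01 CPM (-0.43, adjusted p = 0.0818).

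Negative medians were found in each of 3 ranges of expression. Of the antisense RNAs under 4 CPM, 66 in number, 2 were called, and the median log2 fold change of the 66 was -0.21. The 2 called, Gm26771 and Gm11998, passed the minimum level of the set only through the WT libraries. Protein-coding genes under 4 CPM had a median of 0.02, with 31 of 1029 called. The minimum level of the set did not apply to them, so they can reach lower levels within that range. The 52 between 4 and 8 CPM had a median of -0.16 with 1 called, against 0.01 for coding genes (31 of 762 called). The 49 at 8 CPM or more had -0.11 with 4 called, against 0.003 for coding genes (629 of 8539 called). Over all genes tested 6.39% were called, the share to set beside the calls by arrangement. By arrangement, the median was -0.14 for the 115 with exon on exon (2 called), -0.15 for the 43 with no shared exon (3 called), -0.35 for the 4 head to head (1 called) and -0.29 for the 5 without a partner (1 called). Other non-coding classes of the table had medians of -0.08 (276 lincRNAs), -0.10 (161 processed transcripts), -0.22 (24 bidirectional promoter lncRNAs), -0.19 (32 snoRNAs), -0.05 (254 of type TEC) and -0.02 (40 sense intronic). The coding genes had 0.004. These medians describe the lists, and the differences between classes were not tested.

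Summed over the set without Tug1, which alone makes up a large share, the antisense RNAs reached 1424, 1421, 1325 and 1310 CPM in the KO libraries and 1457, 1523, 1453 and 1542 CPM in the WT libraries. Each KO sum lay below each WT sum. The sums include the called antisense RNAs, of which Gm45552 had the highest level, and no sum without these was made. With Tug1 the sums were 1625 ± 71.1 CPM in KO (1561 to 1695) and 1742 ± 44.8 CPM in WT (1701 to 1788). The summed partner genes stood at 31792 ± 296 CPM in KO against 31331 ± 107 CPM in WT, with 1 KO library (31448) below the highest WT library (31482). Antisense reads were 0.161% of all reads in KO and 0.175% in WT.

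**Figure D3:**
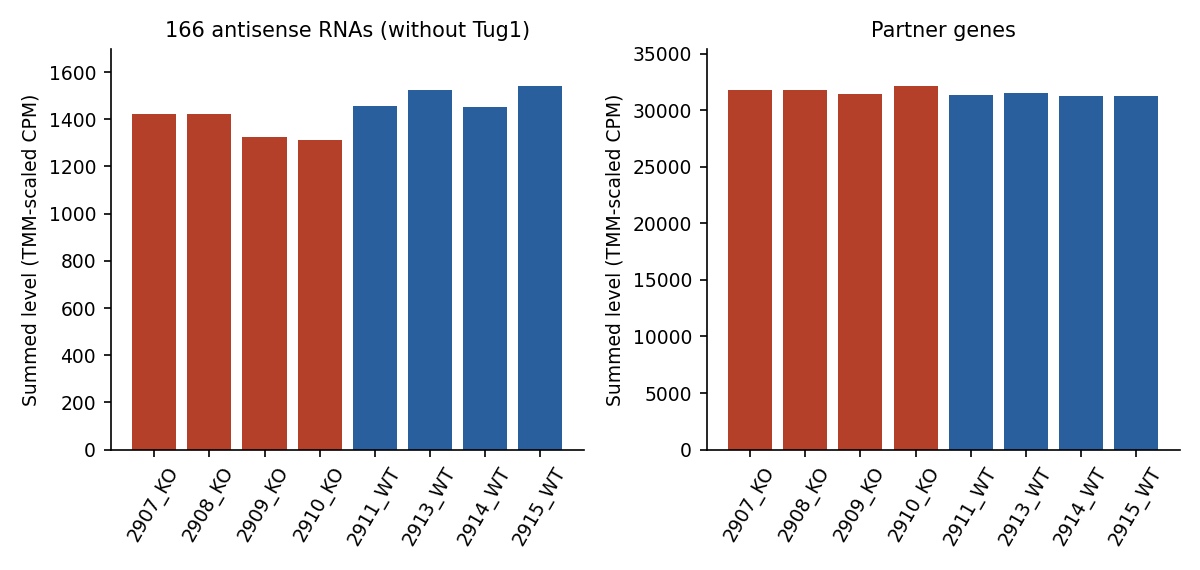
Summed TMM-scaled CPM per library (bars from 0; KO red, WT blue) of the 166 antisense RNAs other than Tug1 (left) and of their partner genes (right). The antisense sums are 1310 to 1424 CPM in KO and 1453 to 1542 CPM in WT, while the partner sums are 31448 to 32171 CPM in KO and 31237 to 31482 CPM in WT.

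The median of the partner genes lay near 0. Of the 160 distinct partners 149 were tested, with a median log2 fold change of 0.01, and 20 were called (13.4%), 14 higher and 6 lower, where 6.39% of all genes and 6.69% of protein-coding genes were called. These shares are not matched for expression level. At 8 CPM or more 629 of 8539 coding genes were called, and under 4 CPM 31 of 1029. Without Sample_2911_WT and Sample_2914_WT together 12 were called, where 3.94% of all genes were called. In all 21 antisense RNAs had a called partner, and 2 of these were called themselves, Gm20324 with Tcf20 and 5830468F06Rik with Kbtbd11, each in the direction of its partner. Opposite the 15 with a higher partner, 9 antisense values were positive and 6 negative (median 0.08). Opposite the 6 with a lower partner, 4 were negative and 2 positive (median -0.39).

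Rapgef4os3 and its partner had nearly equal values. Rapgef4, a gene for an exchange factor activated by cyclic AMP, fell (log2 fold change -0.59, adjusted p = 7.22e-07; 65.0 against 97.6 CPM). Rapgef4os3 had 8.18, 4.49, 4.32 and 7.23 CPM in KO against 11.2, 7.57, 8.78 and 8.74 CPM in WT (-0.58, adjusted p = 0.102). Its groups overlapped through Sample_2907_KO. Opposite Pou6f1, a POU-domain transcription factor gene that fell by 0.61 (log2 fold change -0.61, adjusted p = 9.51e-07), Gm27209 had -0.43 (adjusted p = 0.571).

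To ask whether an antisense RNA moved differently from its partner, the log2 ratio of the pair was tested. The fit took in 458 pairs of a non-coding gene of the antisense, lincRNA or processed transcript classes and its opposite-strand partner, of which 151 were pairs of the set. In 3 of the 151 (1.99%) the ratio changed, each time to a lower antisense share in KO. Over all 458 pairs 6 were called (1.31%), all lower. The 3 calls of the set became 0 without Sample_2908_KO, 0 without Sample_2911_WT and Sample_2914_WT together, and 1 without Sample_2910_KO, Sample_2914_WT or Sample_2915_WT (limma; at an unadjusted p under 0.05 there were 22, 20, 18, 21 and 21). The median change in ratio was -0.12 for the 151, -0.11 for all pairs and -0.10 for the other 307.

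Gm37065 (chromosome 1, 171909957 to 171919356, minus strand) had the largest of these changes. It overlaps 1842 bases of Slamf6, which encodes a receptor of the SLAM family on T cells, with no exon on exon. For each 100 reads of Slamf6 the KO libraries held 0.468, 0.656, 0.704 and 1.21 reads of Gm37065 and the WT libraries 2.23, 1.46, 1.85 and 1.66, without overlap. The log2 ratio change was -1.28 (SE 0.26, limma adjusted p = 0.0217). Both parts of the ratio contribute to it. Slamf6 rose (log2 fold change 0.58, edgeR adjusted p = 5.59e-07), and Gm37065 had 2.44, 2.96, 3.03 and 5.62 CPM in KO against 6.18, 4.33, 6.20 and 5.54 CPM in WT (-0.69, SE 0.26, adjusted p = 0.119). Sample_2910_KO lay within the WT libraries, and without it Gm37065 was called lower by itself (-0.99, adjusted p = 0.0233).

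Gm28809 (chromosome 6, 125481363 to 125484678, plus strand) lies within Cd9, a tetraspanin gene, with no exon on exon. It held 12.0, 12.8, 10.7 and 9.92 reads per 100 reads of Cd9 in the KO libraries and 18.3, 19.0, 19.5 and 22.8 in the WT libraries. The log2 ratio change was -0.80 (SE 0.19, limma adjusted p = 0.0246). Its own levels were 5.13, 6.58, 5.84 and 4.95 CPM in KO against 8.30, 7.75, 8.91 and 8.48 CPM in WT, also without overlap, and missed the threshold (-0.58, SE 0.19, edgeR adjusted p = 0.061). Under limma-voom (adjusted p = 0.0417), and without Sample_2908_KO (0.0442), it was called. The value of Cd9 was 0.24 (adjusted p = 0.137).

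The third pair was Gm13546 with Cytip. It had 0.488, 0.392, 0.551 and 0.423 reads per 100 Cytip reads in the KO libraries and 0.691, 0.765, 1.218 and 1.13 in the WT libraries (log2 ratio change -0.97, SE 0.23, limma adjusted p = 0.0246). All 3 ratio calls were lost without Sample_2908_KO (adjusted p from 0.0501 to 0.0665) and without Sample_2911_WT and Sample_2914_WT together (0.107 to 0.113). Those of Gm13546 and Gm28809 were also lost without Sample_2910_KO, Sample_2914_WT or Sample_2915_WT, and that of Gm28809 with no filter on low counts (0.0640). For 4 other called antisense RNAs the ratio was not called. It was -0.45 for 2810001G20Rik to Cox10 (limma adjusted p = 0.143), -0.17 for Gm20324 to Tcf20 (0.775), -0.23 for Gm26771 to Sfrp2 (0.909) and 0.17 for 5830468F06Rik to Kbtbd11 (0.743).

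**Figure D4:**
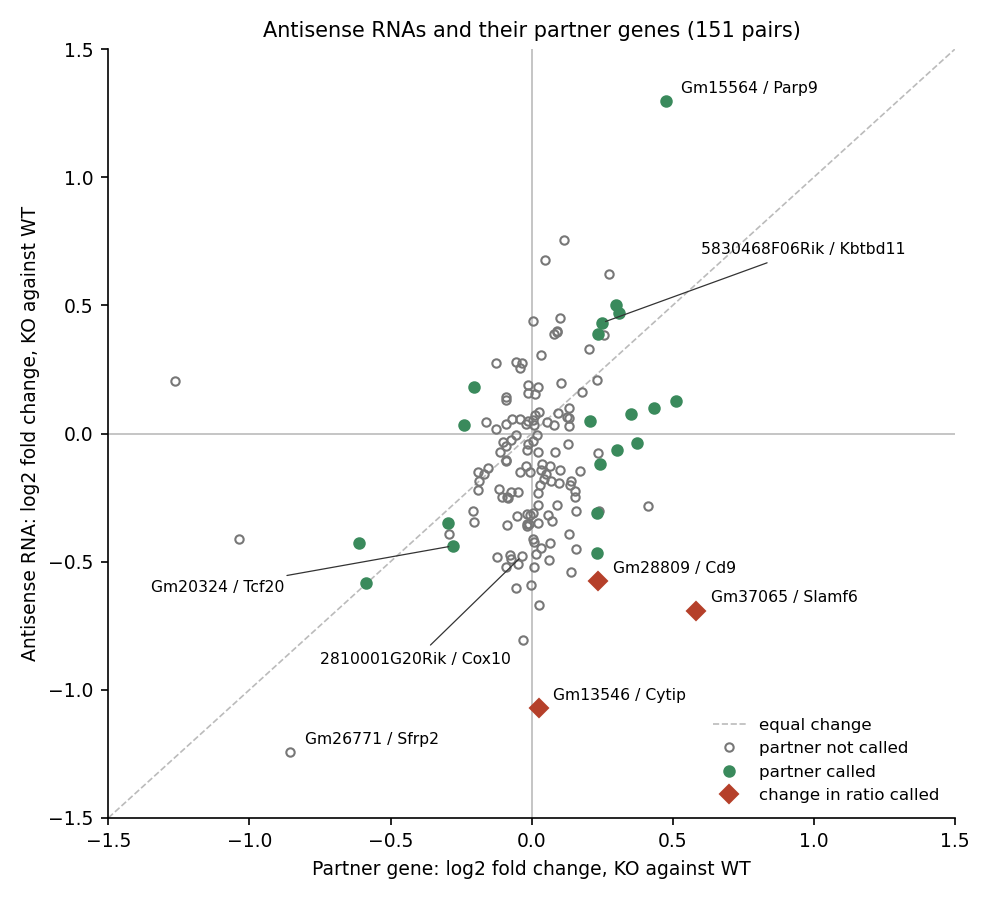
Log2 fold change of each antisense RNA (vertical) against that of its partner (horizontal), KO against WT, for the 151 pairs with both genes tested; reads of the pair may not be separable, and the dashed line marks equal change. The 3 pairs with a called change in ratio (diamonds) lie below the line with the antisense RNA negative and the partner at 0.02 to 0.58; Gm20324 and 5830468F06Rik lie on the side of their called partner.

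Grouped by what the partner is known for, a grouping made after the partners were known, 5 antisense RNAs lay opposite genes of T cell receptor signalling. They were AC122305.3 (Cd3e), Gm37469 (Cd247), Gm16364 (the kinase gene Fyn), Gm27206 (the phospholipase gene Plcg1) and E430024P14Rik (Tagap). edgeR called 0 of them, 0 had an unadjusted p under 0.05, and DESeq2, limma-voom and limma-trend called 0 as well. Their values ran from -0.48 (Gm27206) to 0.45 (Gm16364), and none of the 5 partners was called. AC122305.3 had 11.0, 13.0, 9.62 and 10.7 CPM in KO against 12.0, 11.9, 12.4 and 13.0 CPM in WT (log2 fold change -0.16, adjusted p = 0.641).

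Opposite transcription factor genes of T cells lay 4 antisense RNAs, of which 0 were called by edgeR, DESeq2, limma-voom or limma-trend and 1 had an unadjusted p under 0.05. A630014C17Rik, within Tcf7, a gene for a factor that maintains naive T cells, had 14.0 ± 1.79 CPM in KO against 17.6 ± 2.63 CPM in WT (-0.35, adjusted p = 0.147), and Tcf7 fell (-0.29, adjusted p = 0.000291). Ikzf1, which encodes Ikaros, also fell (-0.21, adjusted p = 0.00892), whereas Gm12000 within it had 0.18 (adjusted p = 0.66). Gm43352 opposite Lef1 had 0.28 and Gm15417 opposite Zbtb7b -0.51, neither called. No exon base is shared in the Tcf7 and Ikzf1 pairs.

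The 5 antisense RNAs opposite interferon-induced or antigen presentation genes all had positive values, between 0.15 and 1.30 (median 0.39). None was called by edgeR, DESeq2, limma-voom or limma-trend, and 0 had an unadjusted p under 0.05. They were Gm11131 (H2-Q4), Gm20496 (the immunoproteasome gene Psmb8), Gm20234 (Slfn2), Gm15133 (Trim12a) and Gm15564 (Parp9). Parp9 and Slfn2 rose (0.48, adjusted p = 6.29e-06, and 0.24, adjusted p = 0.00429). Gm15564 had the largest value of the set, 1.30 (SE 0.79, adjusted p = 0.485), with its highest level in Sample_2907_KO: the KO libraries had 21.9, 1.86, 5.08 and 9.78 CPM, against 5.98, 5.41, 3.39 and 2.08 CPM in the WT libraries. The groups overlapped widely. Type I interferon response genes, as a list, summed to 776 to 1032 CPM in the KO libraries and 460 to 614 CPM in the WT libraries (10 of 12 called higher), and their part in these values was not tested.

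Opposite surface receptor or adhesion genes lay 7, of which Gm13546 alone was called and 4 had an unadjusted p under 0.05. Beside Gm28809 and Gm37065 these included Gm17173, opposite the prostaglandin receptor gene Ptger2, with 5.01, 3.51, 2.92 and 1.87 CPM in KO against 1.54, 1.802, 1.78 and 2.60 CPM in WT (log2 fold change 0.76, adjusted p = 0.204). Of their partners Slamf6, Ms4a6b (0.35, adjusted p = 6.48e-05) and Tnfrsf22 (0.43, adjusted p = 0.00424) rose. Gm19261 opposite Ms4a6b and E230032D23Rik opposite Tnfrsf22 had 0.08 and 0.10, neither called.

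Of the antisense RNAs with a known role, Tug1, a widely expressed lncRNA that starts beside Morc2a, had the highest read count and differed little. It stood at 254.8 ± 15.6 CPM in KO against 248.1 ± 3.8 CPM in WT (log2 fold change 0.04, adjusted p = 0.792). Kcnq1ot1, the imprinted transcript that silences neighbours in the Kcnq1 cluster, had 16.4, 15.02, 13.3 and 15.7 CPM in KO against 20.6, 22.3, 17.0 and 20.9 CPM in WT. Its groups did not overlap, and its log2 fold change of -0.41 (SE 0.13) missed the threshold (edgeR adjusted p = 0.0556), which it passed with library size scaling alone (0.0406) and without Sample_2914_WT (0.0255). Kcnq1 had too few reads to be tested.

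Airn, the imprinted antisense transcript of Igf2r, had 8.18, 9.87, 10.05 and 9.11 CPM in KO against 12.9, 11.7, 11.7 and 11.6 CPM in WT. The groups did not overlap, and the log2 fold change of -0.35 was not called (adjusted p = 0.195), nor was that of Igf2r (-0.01, adjusted p = 0.936). Gt(ROSA)26Sor, the transcript of the Rosa26 locus, had 22.1 ± 2.97 CPM in KO against 23.6 ± 4.55 CPM in WT (-0.14, adjusted p = 0.653).

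The 15 antisense RNAs named for a gene with the suffix os had values from -0.67 (Man2c1os) to 0.68 (Slain1os), 11 negative and 4 positive (median -0.16). None was called by edgeR, DESeq2, limma-voom or limma-trend, and 4 had an unadjusted p under 0.05. Slain1os, opposite Slain1, a gene for a microtubule-associated protein, had 3.501 ± 0.70 CPM in KO against 1.98 ± 1.096 CPM in WT (adjusted p = 0.288). C330011M18Rik, opposite the transcription factor gene Rfx1, had 3.79, 3.73, 1.40 and 2.54 CPM in KO against 5.40, 7.57, 3.70 and 4.24 CPM in WT (-0.80, adjusted p = 0.122). Its groups met at a single point, where Sample_2914_WT lay just under 2 KO libraries.

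The marker lists of the cells were read beside these values. Of 8 naive CD4 T cell genes, all tested, 2 were called higher and 3 lower, and their summed level was 6803 to 7557 CPM in KO and 6855 to 7304 CPM in WT. Regulatory T cell markers summed to 110 to 192 CPM in KO and 52.5 to 59.9 CPM in WT (2 of 5 higher). B cell markers summed to 356 to 412 CPM in KO and 443 to 480 CPM in WT, with 1 of 3 tested called lower and a median log2 fold change of -0.01. CD8 markers had 9.65 to 14.7 and 13.2 to 18.2 CPM, myeloid markers 9.11 to 15.7 and 1.44 to 28.4 CPM, and NK markers 7.997 to 11.3 and 7.96 to 9.55 CPM. Erythroid markers had 0.22 to 0.76 and 0.17 to 0.54 CPM, with Hbb-bs at 0 reads. The part of the regulatory T cell and B cell lists in the values of the antisense RNAs was not tested.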

How the data were processed

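Poly(A) RNA-seq of 8 samples (4 KO, 4 WT, by their labels) was analysed from the submitters' tables. As deposited, 1 table gives raw counts per gene (53465 gene IDs) and another gives a normalized signal, the count over the size factor of its sample, for the 16418 genes with 10 reads or more. DESeq2 1.22.2 under R 3.5.3, CASAVA 1.8.2 and FastQC are named in the submitters' processing notes, as is the build mm10. Not given in the sources used here: aligner, counter, annotation release and use of strand.

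Counts were tested with edgeR 4.0.16 in R 4.3.3 (robust quasi-likelihood F test, TMM, filterByExpr), and every adjusted p of a single gene is from this test over 11772 genes unless another tool is named. Log2 ratios of an antisense RNA to its partner (prior count 2) were tested with limma 3.58.1 over 458 pairs. CPM are TMM-scaled, SD is over libraries, and SE is that of the log2 fold change. Positions and exons came from GENCODE M21, which held 99.8% of the IDs, and promoter windows from RefSeq (GRCm38.p6). It is not stated that the samples are separate animals, so p-values measure only the spread between these samples, which may be technical.

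The members and the lists were chosen with earlier results of these data known. Genes were named if called, among the 6 highest per length, the 5 largest uncalled changes, the 5 on each side of the threshold, or of known role. All others, including those named for their partner, for groups without overlap, for the suffix os or for a called ratio, were named after their values were seen. A few values of named genes and partners are not reported here.

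On counts simulated for KO against WT (11619 genes), the edgeR step recovered 84% of genes changed 1.5-fold, 90% at 2-fold, 100% at 4-fold and 98% at 8-fold, and 8.4% of its calls were unchanged genes. The changed genes were drawn from all genes above a low level, not from the antisense RNAs. Recovery among the antisense RNAs, 66 of which lay under 4 CPM, was not measured and may be lower. On 433 simulated pairs the ratio step recovered 48% at 2-fold and 90% at 4-fold. Alternatives were DESeq2 1.42.0, limma-voom, limma-trend on log2 of the deposited values plus 1, other scalings and filters, a non-robust fit, a prior count of 0.5, and leaving out libraries. The alternatives for the partners called were added after the data were seen.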

Additional observations from a re-analysis of the deposited data

Results flagged for a closer look

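In 40 groups of 4 libraries, those of the named antisense RNAs, the highest or lowest library was compared with the others by Dixon's criterion, and 3 stood apart. Chance alone gives about 1 group in 20. 5830468F06Rik had 24.507 CPM in Sample_2910_KO, where the other KO libraries had 31.6 to 32.2 CPM. Airn had 12.931 CPM in Sample_2911_WT, where the other WT libraries had 11.6 to 11.7 CPM. Gm45552 had 102.744 CPM in Sample_2915_WT, where the other WT libraries had 94.4 to 95.7 CPM.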

How the results depend on the processing

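No paired analysis was possible because the sample numbers of the KO and WT groups are not shared. The number of antisense RNAs called was 7, between 6 and 9 under the other tests, scalings and filters, and between 4 and 9 when 1 library was left out, with 4 without Sample_2909_KO or Sample_2913_WT. Of all rows of the class 9 were called, 15 with limma-trend on the deposited values, where more rows were tested, and 6 to 11 with 1 library left out. Changes in ratio numbered 3, and 0 to 4 with 1 library left out. With limma they numbered 0 without Sample_2908_KO (22 at an unadjusted p under 0.05), 0 without Sample_2911_WT and Sample_2914_WT together (20 at an unadjusted p under 0.05), and 1 without Sample_2910_KO, Sample_2914_WT or Sample_2915_WT. Called partners numbered 20, with 12 without that pair of libraries and 16 to 22 with 1 library left out. The share of all genes called moved too. It was 6.39% in the main fit, 4.65% with limma-trend on the deposited values and 3.94% without that pair of libraries. The cause was not tested. Near 0, the value of Gm28913 turned from -0.03 to 0.0031 with limma-voom and ranged from -0.1413 to 0.0593 with 1 library left out, and that of Gt(ROSA)26Sor from -0.2263 to 0.0065, the last without Sample_2914_WT. The median of the antisense RNAs was negative in each alternative. They had a median of 391 reads over the 8 libraries and a median SE of 0.24 on the log2 scale. For an antisense RNA with that SE, a single change near that size was not detectable at this depth. The SE ran from 0.055 to 0.79 over the set.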
